A study of Mus musculus with 16 samples.

Results

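The genes described here carry out or control cholesterol synthesis, uptake and sterol sensing. The 29 named genes were matched by the gene symbol of the array platform, and 25 of them had a probe set, 1 each, among 22206 tested probe sets. Of those probe sets 19572 carry a gene symbol, standing for 19505 genes, and 2634 carry none. Acat2, Tm7sf2, Srebf1 and Nr1h2 were not matched to a probe set and are not analysed here. The 25 measured genes are 17 enzymes of the pathway, 4 genes of sterol sensing (Insig1, Insig2, Scap and Srebf2) and 4 of sterol transport and export (Stard4, Npc1, Npc2 and Abca1).

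RNA was measured on 16 Affymetrix arrays, 4 in each of 4 groups of BU.MPT cells, a mouse proximal tubular line. It is conditionally immortalised, by a T antigen that runs under interferon-γ at a permissive temperature, and every group was grown at 39 °C without IFN-γ. H/R+B12 cells had 3 h of hypoxia at about 1% oxygen in medium with neither glucose nor serum, then 1 h of reperfusion at normal oxygen with 4.5 g/L glucose and 10% serum, with 0.3 µM cyanocobalamin (vitamin B12). H/R cells had the same hypoxia and reperfusion without added B12. Control+B12 cells stayed at 21% oxygen in full medium with 0.3 µM B12, and control cells stayed there without added B12. Oxygen, glucose and serum changed together in both H/R groups, so their parts cannot be told apart. The descriptions of 3 arrays in each B12 group carry another vitamin number than B12, and their titles, which read B12, were followed. Whether arrays of a group stand for separate cultures is not stated, so the spread behind each p-value is that of these arrays and may be technical.

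Cholesterol is built from acetyl-CoA through mevalonate, the isoprenoid diphosphates, squalene and lanosterol, and several late steps consume molecular oxygen. When sterol in the membrane of the endoplasmic reticulum runs low, Scap escorts the transcription factor SREBP-2, the product of Srebf2, to the Golgi, where proteases free the part that turns on genes of the pathway. The Insig proteins hold Scap back while sterol is plentiful. Cholesterol is known to accumulate in proximal tubule after experimental injury of the kidney.

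Values are log2 signal after robust multi-array averaging (RMA), so 1 unit is a doubling, and levels are compared between groups for the same gene only. Arrays of a group correlated at 0.990 to 0.994 over all tested probe sets, and the array medians lay between 5.21 and 5.37. Of 14 measured proximal tubule markers, 2 (Aqp1 and Mme) exceeded the median of the negative control probe sets, as did 6 of 7 general tubule epithelium markers. None of 6 endothelial markers did, 1 of 5 fibroblast, 1 of 5 leukocyte (Csf1r) and 2 of 3 podocyte markers did. The mean proximal tubule marker signal per array was 4.70 to 4.91 in H/R+B12, 4.74 to 5.04 in H/R, 4.92 to 5.12 in control+B12 and 4.71 to 5.02 in control cells. Aqp1 and Mme were both lower after H/R in each comparison (log2 change -0.79 and -0.52 without B12, -0.87 and -0.61 with it). Of the general tubule markers Krt18, a keratin, was higher (0.82 and 1.43, adjusted p = 0.0166 and 0.000251, limma) and Pax2, a transcription factor, lower (-0.66 and -0.81, adjusted p = 0.00267 and 0.000503), and the part of these shifts in the results below was not tested. Less RNA per cell and fewer cells of a kind cannot be told apart in such bulk samples.

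After H/R most of the cholesterol pathway was higher than in control cells. Of the 25 measured genes, 15 rose and 1, the sterol isomerase Ebp, fell by limma with Benjamini-Hochberg adjustment over all tested probe sets at a threshold of 0.05, and 9 were not called. Among all tested probe sets 8.11% were called higher and 9.54% lower in that comparison. On every array the median over all tested probe sets (5.21 to 5.37) was below the median of the negative controls (5.72 to 6.23). Shares and medians over all tested probe sets, here and below, therefore include many under that level. Most of the 25 genes lay above it. The split over all tested probe sets was 1801 higher and 2118 lower as deposited, and 2133 and 1646 with each array centred on its median. The median log2 change of the 25 genes was 0.80 (0.89 over the 24 called above background here, which leaves out Abca1, below the negative control median on all 16 arrays), beside -0.02 over all tested probe sets, and 11 genes were at least 2-fold higher. All 4 H/R arrays lay above all 4 control arrays for 15 genes and below them for 1, against a background of 9.88% and 11.0% of all tested probe sets.

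With B12 in both arms, a comparison that shares no array with the first, 17 genes rose and 1 fell, again Ebp, with backgrounds of 9.04% higher and 9.61% lower. That split was 2007 higher and 2135 lower, and 2417 and 1605 with arrays centred. The median log2 change was 1.01, beside -0.04 over all tested probe sets, and 13 genes were at least 2-fold higher. The H/R+B12 arrays lay wholly above the control+B12 arrays for 17 genes and wholly below for 1 (background 10.3% and 11.2%). The call and the separation of arrays differed for Dhcr7, which was called although its arrays overlapped, and for Pmvk, which was not called although its arrays did not.

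**Figure D1:**
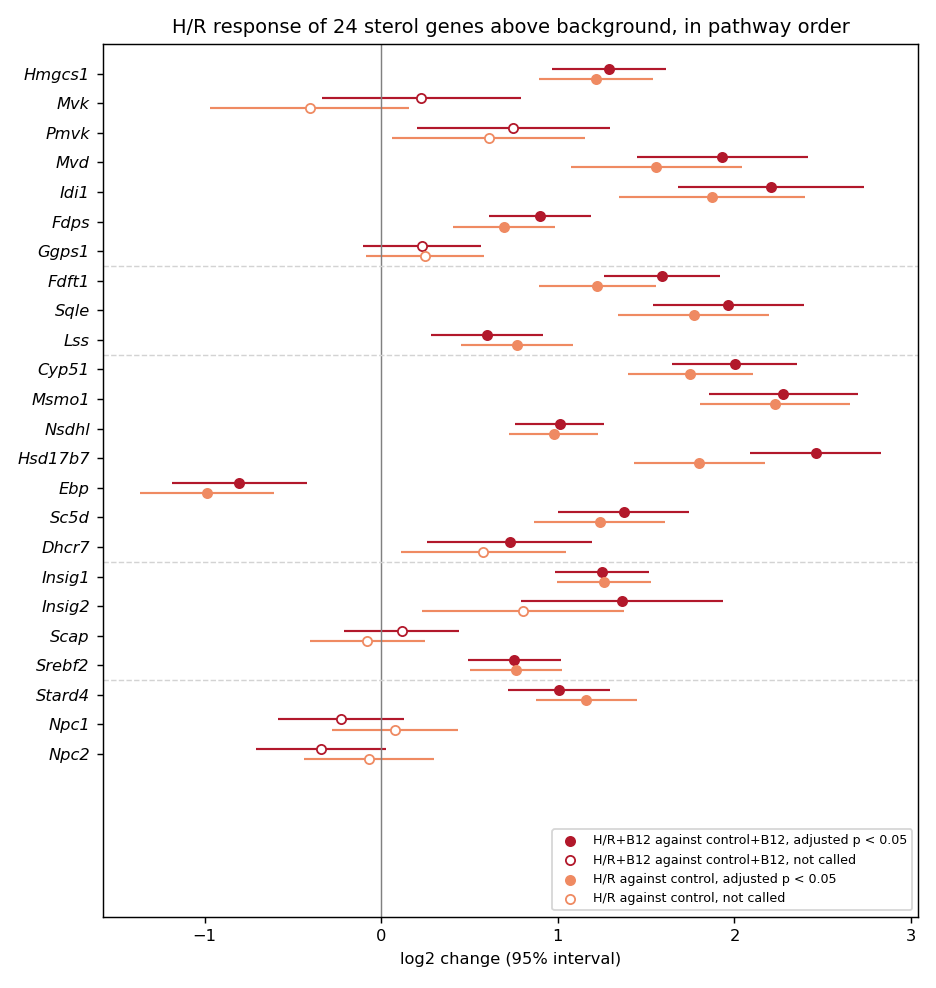
Log2 change of each of the 24 genes above background after H/R with B12 in both arms (dark red) and without B12 (orange), with 95% intervals from limma, from the first enzyme of the pathway at the top to the transport genes at the bottom. Filled points passed the adjusted threshold of 0.05; 16 genes did so in both comparisons in the same direction, and Ebp is the 1 filled point left of 0.

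The promoters of 4 of these genes are shown, as SREBP-2 is known to act on promoters of the pathway. Binding was not measured here. The 4 are Hmgcs1, the first measured enzyme, Msmo1, with the largest rise without B12, Insig1, the sensor, and Ebp, the 1 enzyme that fell. Each window runs from 250 bases before to 50 bases after the start in RefSeq (GRCm38.p6), 5′ to 3′ on the gene's strand, and 24 of the 29 named genes have one there. Capitals mark the sterol regulatory element core TCACNCCAC, the kind of site SREBP-2 binds, and the NF-Y box CCAAT, bound by a factor known to act beside SREBPs, each on either strand (an NF-Y box on the other strand reads ATTGG). Hmgcs1 lies at chr13:119690101-119690400 (+), Msmo1 at chr8:64733529-64733828 (-), Insig1 at chr5:28071162-28071461 (+) and Ebp at chrX:8193463-8193762 (-).
Hmgcs1: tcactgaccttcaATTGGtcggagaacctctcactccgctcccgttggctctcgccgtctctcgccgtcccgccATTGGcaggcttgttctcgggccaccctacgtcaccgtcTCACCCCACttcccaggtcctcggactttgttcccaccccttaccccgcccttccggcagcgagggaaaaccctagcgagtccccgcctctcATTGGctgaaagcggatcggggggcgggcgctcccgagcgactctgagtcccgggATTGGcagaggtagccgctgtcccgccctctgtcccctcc
Msmo1: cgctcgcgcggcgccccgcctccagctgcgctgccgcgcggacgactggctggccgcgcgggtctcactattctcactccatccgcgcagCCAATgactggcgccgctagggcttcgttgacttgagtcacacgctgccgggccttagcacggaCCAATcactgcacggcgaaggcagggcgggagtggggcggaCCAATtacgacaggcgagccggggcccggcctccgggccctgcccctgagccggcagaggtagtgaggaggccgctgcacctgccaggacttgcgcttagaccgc
Insig1: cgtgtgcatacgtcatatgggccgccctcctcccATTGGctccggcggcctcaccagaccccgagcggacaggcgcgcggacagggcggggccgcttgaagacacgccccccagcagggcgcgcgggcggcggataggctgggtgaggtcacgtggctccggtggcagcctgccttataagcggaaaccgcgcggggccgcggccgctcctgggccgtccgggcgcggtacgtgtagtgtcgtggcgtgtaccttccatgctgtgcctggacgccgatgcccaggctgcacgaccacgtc
Ebp: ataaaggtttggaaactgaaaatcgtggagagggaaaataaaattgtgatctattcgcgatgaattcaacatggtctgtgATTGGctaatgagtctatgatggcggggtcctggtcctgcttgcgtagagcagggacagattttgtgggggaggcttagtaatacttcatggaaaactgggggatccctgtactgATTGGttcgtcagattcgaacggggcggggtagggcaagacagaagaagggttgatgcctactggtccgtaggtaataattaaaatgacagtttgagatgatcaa

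The Hmgcs1 window held the sterol element core once, as TCACCCCAC at positions -137 to -129 from the start, and 4 NF-Y boxes. Msmo1 held 3 NF-Y boxes, Insig1 1 and Ebp 2. The sterol element core was found in 1.44% of the 27025 genes with a window and in 1 of the 24 genes of the pathway that have one, Hmgcs1. The NF-Y box was found in 41.1% of all genes with a window and in 20 of those 24. Among the measured genes with a window it was present in 11 of 11 that rose after H/R without B12 and in 7 of the 9 others, Ebp among them. The 24 genes have 32 windows between them, and a gene was counted if any of its windows matched. Pmvk, Dhcr7, Insig2 and Scap, all among the 9 others, have several windows, so the 2 counts are not like for like. The box was absent from some windows of Pmvk, Dhcr7 and Insig2. The hypoxia response core ACGTG was in 21.8% of genes and in 6 of the 24, and each of those 6 also held the E-box CACGTG (8.09% of genes), which contains ACGTG on both strands. Of them, Insig1 alone had an ACGTG outside an E-box. A match is a description of these letters and not evidence of binding. Only these exact spellings were counted, so a window without a match may still hold a site spelled otherwise.

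The mevalonate arm makes the isoprenoid units. Of its 7 measured enzymes 4 rose in each H/R comparison (Hmgcs1, Mvd, Idi1 and Fdps) and none fell, with median log2 changes of 0.90 with B12 and 0.69 without. Hmgcs1, the synthase that commits acetyl units to the pathway, read 17.72, 17.71, 17.69 and 17.60 on the H/R arrays, against 16.89, 16.34, 16.05 and 16.58 on the control arrays. With B12 it read 17.65, 17.58, 17.59 and 17.67 after H/R, against 16.34, 16.23, 16.48 and 16.28 in control+B12 cells. Every H/R array was above every array kept at normal oxygen. The log2 change was 1.22 ± 0.15 (SE, n = 4 against 4) without B12 and 1.29 ± 0.15 with it, with adjusted p = 3.35e-05 and 1.9e-05 by limma.

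Idi1, which isomerises isopentenyl diphosphate, had the largest rise of the arm. Its H/R arrays read 13.25, 13.20, 13.22 and 12.86, against 12.28, 10.86, 10.79 and 11.10 for control. Its H/R+B12 arrays read 13.20, 13.08, 13.20 and 13.06, against 10.83, 10.74, 10.95 and 11.19 for control+B12. The first control array was well above the other control arrays and still below every H/R array. Idi1 changed by 1.87 ± 0.25 without B12 (adjusted p = 5.44e-05, limma) and by 2.21 ± 0.25 with B12 (adjusted p = 1.24e-05), a 3.66-fold and a 4.61-fold rise.

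Mvd, the decarboxylase that yields isopentenyl diphosphate, read 11.22, 10.77, 11.34 and 11.50 after H/R, against 10.12, 9.73, 9.18 and 9.56 in control cells. It read 11.10, 11.75, 11.14 and 11.55 in H/R+B12 cells, against 9.06, 9.51, 9.84 and 9.41 in control+B12 cells. Neither pair of groups overlapped, and the log2 changes were 1.56 ± 0.23 and 1.93 ± 0.23 (adjusted p = 0.000138 and 1.86e-05, limma). Fdps, the farnesyl diphosphate synthase, rose by less than 2-fold: its mean was 13.48 ± 0.17 in H/R and 12.78 ± 0.17 in control cells (SD, n = 4 each), and 13.46 ± 0.12 in H/R+B12 and 12.56 ± 0.14 in control+B12 cells. The changes of 0.69 ± 0.14 and 0.90 ± 0.14 both passed (adjusted p = 0.00168 and 0.000192, limma).

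The other 3 enzymes of the arm were not called. Mvk, the kinase of mevalonate, averaged 6.23 ± 0.25 in H/R and 6.63 ± 0.54 in control cells, and 6.33 ± 0.41 in H/R+B12 and 6.10 ± 0.37 in control+B12 cells, close to the negative control medians of 5.72 to 6.23. The sign of its difference was not the same in the 2 comparisons (-0.40 without B12 and 0.23 with it, adjusted p = 0.377 and 0.643, limma). Pmvk, the next kinase, read 9.57, 9.88, 9.74 and 10.18 after H/R, against 9.89, 8.74, 9.18 and 9.14 in control cells, where the first control array reached the H/R range. Its differences were 0.61 ± 0.26 without B12 (adjusted p = 0.129, limma) and 0.75 ± 0.26 with B12 (adjusted p = 0.0537). Without the first control array, the highest of its group, the difference without B12 had to grow. It was then 0.82 and passed (adjusted p = 0.0322, limma). With B12 it passed under 4 other ways of processing the values (adjusted p = 0.0154 to 0.0419) and when 1 of 3 single arrays was left out (0.0319 to 0.0443). Ggps1, which makes geranylgeranyl diphosphate for protein prenylation, differed by 0.25 ± 0.16 without B12 and 0.23 ± 0.16 with it, on overlapping arrays (adjusted p = 0.355 and 0.375, limma).

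All 3 enzymes that turn farnesyl diphosphate into lanosterol rose in both comparisons. Fdft1, the squalene synthase and first enzyme committed to sterols, read 15.67, 15.54, 15.67 and 15.30 after H/R, against 14.73, 14.12, 14.09 and 14.34 in control cells. With B12 it read 15.64, 15.67, 15.63 and 15.44 after H/R, against 13.91, 13.88, 13.99 and 14.24 in control+B12 cells. The groups were separate, with log2 changes of 1.22 ± 0.16 and 1.59 ± 0.16 (adjusted p = 3.73e-05 and 2.81e-06, limma).

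Sqle, the squalene epoxidase and an oxygen-consuming step, read 14.63, 14.54, 14.67 and 14.20 after H/R, against 13.33, 12.28, 12.52 and 12.82 in control cells. In the B12 arms it read 14.57, 14.77, 14.35 and 14.34 after H/R, against 12.50, 12.29, 12.75 and 12.64 in control+B12 cells. Again no arrays overlapped, and Sqle rose by 1.77 ± 0.20 without B12 and 1.97 ± 0.20 with it (adjusted p = 1.35e-05 and 4.66e-06, limma). Lss, the lanosterol synthase, rose less, by 0.77 ± 0.15 and 0.60 ± 0.15 (adjusted p = 0.00155 and 0.00894). Its means were 13.35 ± 0.07 in H/R and 12.58 ± 0.32 in control cells, and 13.32 ± 0.09 in H/R+B12 and 12.72 ± 0.15 in control+B12 cells (SD, n = 4 each).

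**Figure D2:**
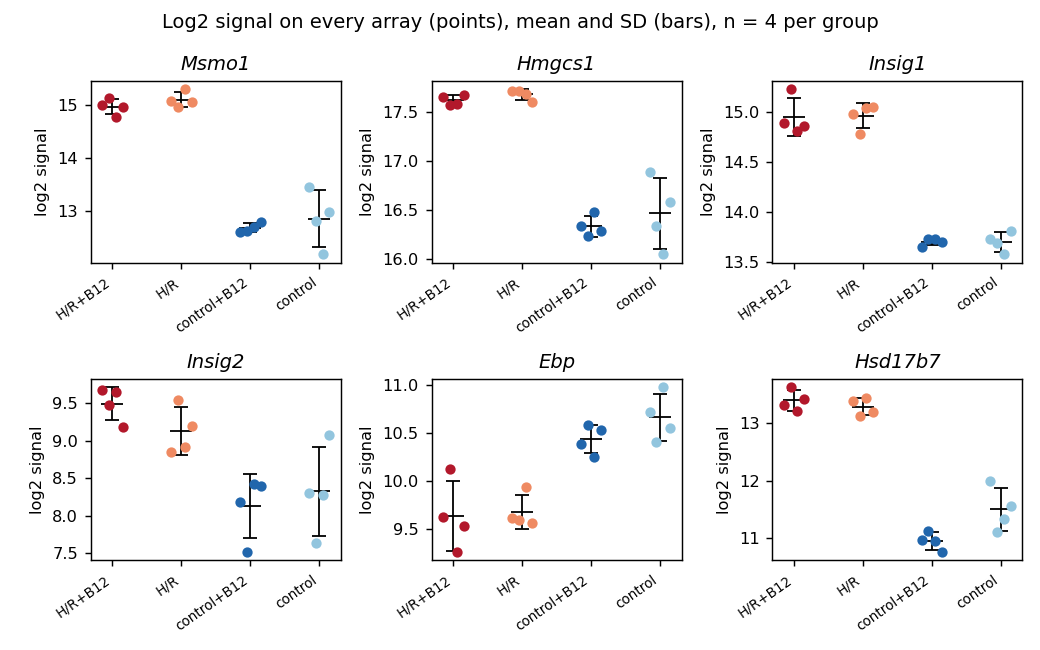
Log2 signal of 6 genes on each array (points), with the group mean and SD (bars, n = 4), in H/R+B12, H/R, control+B12 and control cells. Each panel has its own vertical axis. Msmo1, Hmgcs1, Insig1 and Hsd17b7 lie higher in both H/R groups without overlap, Ebp lies lower, and the Insig2 arrays of H/R and control overlap.

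The steps from lanosterol to cholesterol held both the largest rises and the 1 fall. Of 7 measured enzymes 5 rose and 1 fell without B12, and 6 rose and 1 fell with B12. Cyp51, the lanosterol demethylase, read 16.55, 16.66, 16.78 and 16.51 after H/R, against 15.42, 14.68, 14.74 and 14.66 in control cells. It read 16.60, 16.63, 16.67 and 16.36 in H/R+B12 cells, against 14.60, 14.32, 14.65 and 14.70 in control+B12 cells. The first control array was the highest control array and was still below all H/R arrays. The log2 changes were 1.75 ± 0.17 and 2.00 ± 0.17 (adjusted p = 2.23e-06 and 5.54e-07, limma).

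Msmo1, the methylsterol monooxygenase that starts removal of the methyl groups next to the sterol's hydroxyl, read 15.07, 14.96, 15.29 and 15.05 after H/R, against 13.46, 12.81, 12.19 and 12.99 in control cells. In the B12 arms it read 14.998, 15.13, 14.77 and 14.96 after H/R, against 12.61, 12.64, 12.70 and 12.80 in control+B12 cells. The H/R arrays were more than a full log2 unit above the highest array kept at normal oxygen. Msmo1 rose by 2.23 ± 0.20 without B12, a 4.69-fold change, and by 2.28 ± 0.20 with B12 (adjusted p = 1.22e-06 and 8.59e-07, limma). Of the 22206 tested probe sets, 46 had a larger change without B12 and 53 with it.

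Nsdhl and Hsd17b7 act after Msmo1 in the same demethylation. Nsdhl, a sterol dehydrogenase, averaged 15.80 ± 0.07 in H/R and 14.83 ± 0.13 in control cells, and 15.86 ± 0.06 in H/R+B12 and 14.85 ± 0.14 in control+B12 cells (SD, n = 4 each). Its changes of 0.98 ± 0.12 and 1.01 ± 0.12 had the smallest SE of the 25 genes (adjusted p = 2.34e-05 and 1.76e-05, limma). Hsd17b7, the keto reductase, read 13.39, 13.13, 13.45 and 13.20 after H/R, against 12.0001, 11.10, 11.33 and 11.55 in control cells. It read 13.32, 13.64, 13.22 and 13.43 in H/R+B12 cells, against 10.96, 11.12, 10.94 and 10.75 in control+B12 cells. Both pairs were fully separate. It rose by 1.80 ± 0.18 without B12 and by 2.46 ± 0.18 with it (adjusted p = 2.69e-06 and 1.15e-07, limma), the largest change of the pathway in the B12 arms, exceeded by 43 of all tested probe sets.

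Ebp, the isomerase that moves the sterol ring's double bond, went the other way. It read 9.62, 9.59, 9.94 and 9.56 after H/R, against 10.72, 10.41, 10.98 and 10.55 in control cells. With B12 it read 9.63, 10.12, 9.26 and 9.54 after H/R, against 10.39, 10.58, 10.26 and 10.53 in control+B12 cells. All H/R arrays were below all arrays of their control group. Ebp changed by -0.99 ± 0.18 without B12 (adjusted p = 0.000895, limma) and by -0.80 ± 0.18 with B12 (adjusted p = 0.00429), a signal 0.504 and 0.573 times that of its control group. Its promoter, printed above, holds NF-Y boxes, as do those of the 11 genes that rose and have a window.

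Sc5d and Dhcr7 act after Ebp. Sc5d, the sterol desaturase and another oxygen-consuming enzyme, read 15.28, 15.11, 15.08 and 14.97 after H/R, against 14.26, 13.74, 13.61 and 13.88 in control cells. It read 15.16, 15.43, 14.86 and 15.23 in H/R+B12 cells, against 13.89, 13.48, 13.70 and 14.11 in control+B12 cells. The arrays did not overlap, and Sc5d rose by 1.24 ± 0.18 and 1.37 ± 0.18 (adjusted p = 9.99e-05 and 3.64e-05, limma). Dhcr7, the reductase of the last step on one route, read 10.83, 11.48, 11.40 and 11.44 after H/R, against 11.25, 10.65, 10.52 and 10.41 in control cells. In the B12 arms it read 11.12, 11.55, 10.95 and 11.25 after H/R, against 10.22, 10.49, 10.97 and 10.28 in control+B12 cells. Both pairs overlapped, by 1 low H/R array and 1 high control array without B12. The high control array was the first, and leaving it out had to enlarge the difference. The difference of 0.58 ± 0.22 without B12 was not called (adjusted p = 0.0878, limma) but passed under 3 alternatives, among them without the first control array (0.76, adjusted p = 0.0223), and the rise of 0.73 ± 0.22 with B12 (adjusted p = 0.0289) did not pass when 1 of 5 single arrays was left out (adjusted p = 0.0564 to 0.0937).

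The 4 measured enzymes that use molecular oxygen, Sqle, Cyp51, Msmo1 and Sc5d, all rose in both comparisons, with median log2 changes of 1.98 with B12 and 1.76 without. Over all 17 enzymes the medians were 1.29 and 1.22, with 13 and 12 called higher. Those 17 include the 4. Idi1, Hsd17b7 and Mvd, which are not among the 4, also rose by more than Sc5d in both comparisons.

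Sterol sensing genes rose in part. Insig1, which holds Scap in the endoplasmic reticulum and is itself a target of SREBPs, read 14.98, 14.78, 15.04 and 15.06 after H/R, against 13.73, 13.69, 13.58 and 13.81 in control cells. It read 14.90, 15.23, 14.82 and 14.87 in H/R+B12 cells, against 13.65, 13.73, 13.73 and 13.70 in control+B12 cells. The groups were far apart and the control arrays close together. Insig1 rose by 1.26 ± 0.13 and 1.25 ± 0.13 (adjusted p = 3.34e-06 and 3.72e-06, limma).

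Insig2, the related retention protein, read 8.85, 9.55, 8.92 and 9.19 after H/R, against 8.31, 7.63, 8.28 and 9.08 in control cells. In the B12 arms it read 9.67, 9.48, 9.64 and 9.19 after H/R, against 8.18, 7.52, 8.43 and 8.40 in control+B12 cells. Without B12 the fourth control array lay within the H/R range, and with B12 the groups were separate. Insig2 rose by 1.36 ± 0.27 with B12 (adjusted p = 0.00167, limma), and without B12 the difference of 0.80 ± 0.27 narrowly missed the threshold (adjusted p = 0.0501). It passed there under 5 other ways of processing the values (adjusted p = 0.016 to 0.0381) and without the fourth control array (1.05, adjusted p = 0.008).

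Srebf2, which encodes SREBP-2, read 16.27, 16.07, 16.20 and 16.30 after H/R, against 15.37, 15.40, 15.45 and 15.57 in control cells. It read 16.10, 16.29, 16.36 and 16.30 in H/R+B12 cells, against 15.35, 15.68, 15.62 and 15.37 in control+B12 cells. The arrays were separate in both pairs, and Srebf2 rose by 0.76 ± 0.12 and 0.75 ± 0.12 (adjusted p = 0.000337 and 0.00038, limma). Scap, the escort protein, was not called: it averaged 10.33 ± 0.29 in H/R and 10.41 ± 0.04 in control cells, and 10.67 ± 0.20 in H/R+B12 and 10.55 ± 0.15 in control+B12 cells (SD, n = 4 each). The 95% intervals of its log2 differences were -0.40 to 0.25 without B12 and -0.21 to 0.44 with it.

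Of the 4 transport and export genes, Stard4 alone was called. Stard4, a cytosolic sterol carrier that SREBP-2 controls, read 13.53, 13.66, 13.71 and 13.60 after H/R, against 12.66, 12.27, 12.42 and 12.50 in control cells. It read 13.46, 13.69, 13.57 and 13.39 in H/R+B12 cells, against 12.37, 12.36, 12.57 and 12.79 in control+B12 cells. All H/R arrays were higher, with changes of 1.16 ± 0.14 and 1.01 ± 0.14 (adjusted p = 1.66e-05 and 5.94e-05, limma). Npc1 and Npc2, which release cholesterol from lysosomes, differed by 0.08 ± 0.17 and -0.07 ± 0.17 without B12, and by -0.23 ± 0.17 and -0.34 ± 0.17 with it, on overlapping arrays (adjusted p = 0.839, 0.861, 0.417 and 0.209, limma). Abca1, the cholesterol exporter, was below the median of the negative controls on all 16 arrays, with means of 4.54 ± 0.54 in H/R+B12, 3.85 ± 0.30 in H/R, 3.91 ± 0.34 in control+B12 and 4.30 ± 0.73 in control cells, so no change is given or plotted for it.

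**Figure D3:**
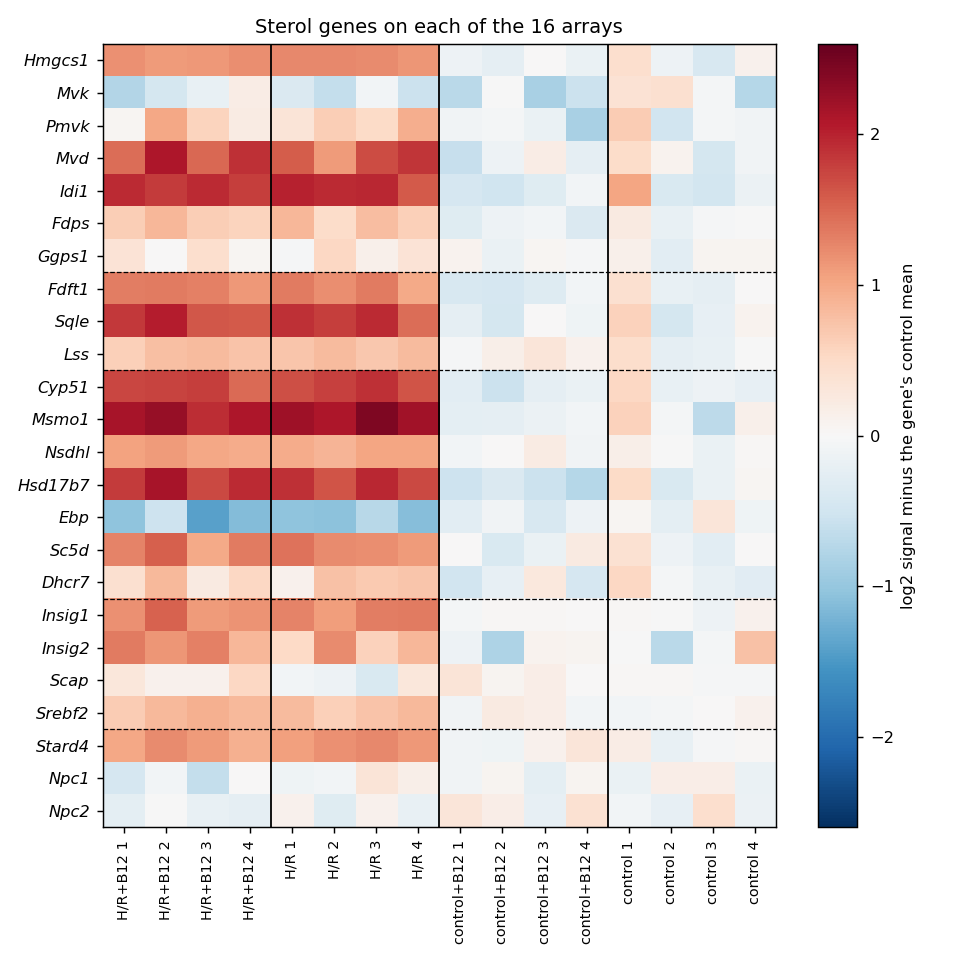
Log2 signal of each of the 24 genes above background on each array minus the gene's mean over the 4 control arrays, with columns in the order H/R+B12, H/R, control+B12 and control and genes in pathway order. Red is higher and blue lower; the 8 H/R arrays are red for most enzymes, Ebp is blue, and the first control array is paler red than the H/R arrays in many enzymes.

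The 2 H/R responses had the same sign for 21 of the 25 genes. Of the 25, 16 were called in both in the same direction, 2 (Dhcr7 and Insig2) with B12 only, 0 without B12 only and 7 in neither. Across the 24 genes above background the 2 sets of log2 changes correlated at 0.958 (Pearson), beside 0.751 across all tested probe sets, as a description over genes of the same arrays, which are not independent replicates. The value over all tested probe sets includes many at background, so the 2 correlations are not like for like. Over all 25 measured genes the correlation was 0.933. The change was larger with B12 for 17 of the 24 genes above background, and for 11 of 24 when the first control array was left out. That array was the highest control array for 15 of the 17 enzymes. Leaving it out had to raise their changes without B12, so nothing is concluded from the lower count. No gene's response differed between the arms by the interaction test: 0 of the 25 were called in either direction, with a background of 0% of all tested probe sets, and 2 had an unadjusted p under 0.05 (1071 of all tested probe sets did). The interaction of Insig2 was 0.56 ± 0.38 (95% interval -0.25 to 1.37, adjusted p = 0.987, limma) and that of Dhcr7 was 0.15 ± 0.31 (-0.51 to 0.81, adjusted p = 0.991).

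The same H/R comparisons were read in 7 related lists of genes, chosen for their place around the pathway. Of all tested probe sets 8.11% were called higher and 9.54% lower without B12, and 9.04% and 9.61% with it. Of 12 measured genes of SREBP processing and of Insig or reductase turnover, 3 rose and 1 fell in each comparison. Spring1, which is needed for SREBP activation, rose by 0.65 ± 0.14 without B12 and 0.80 ± 0.14 with it (adjusted p = 0.00412 and 0.000781, limma). Rnf139, a ubiquitin ligase of the endoplasmic reticulum, rose by 0.64 ± 0.14 and 0.47 ± 0.14, and Ubxn8, an adaptor of Insig1 breakdown, by 0.52 ± 0.16 and 0.89 ± 0.16. The call of Ubxn8 without B12 was lost with only the compared groups in the fit (adjusted p = 0.0665, limma) and when 1 of 5 single arrays was left out (up to 0.125), and so was that of Rnf139 with B12 (0.0681, and up to 0.0914). Tmem199, an assembly factor of the vacuolar proton pump, changed by -0.75 ± 0.19 and -0.85 ± 0.19. The list's median change was -0.07 without B12 and 0.02 with it, near that of all tested probe sets.

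Fatty acid synthesis and other SREBP-1 targets moved in both directions. Of 18 measured genes 6 rose and 3 fell without B12, and 7 rose and 1 fell with it, with medians of 0.13 and 0.38. The shares over all tested probe sets were 8.11% higher and 9.54% lower without B12, and 9.04% and 9.61% with it. Lpin1, a phosphatidate phosphatase, rose by 1.19 ± 0.18 and 1.30 ± 0.18 (adjusted p = 0.000145 and 6e-05, limma). Tmem97, the sigma-2 receptor, a partner of Npc1, rose by 0.94 ± 0.19 and 1.10 ± 0.19, Mid1ip1, an activator of acetyl-CoA carboxylase, by 0.66 ± 0.14 and 0.60 ± 0.14, and the elongase Elovl5 by 0.60 ± 0.12 and 0.81 ± 0.12. The other called genes, named here because they were called, were Scd1, the stearoyl-CoA desaturase (0.46 and 0.51), and Slc25a1, the citrate carrier (-0.49 and -0.39), in both comparisons. Called without B12 only were the elongase Elovl6 (-0.55, and -0.40 with B12) and the desaturase Fads2 (-0.49, and -0.26 with B12). Called with B12 only were the fatty acid synthase Fasn (0.63, and 0.20 without B12) and the acetyl-CoA synthetase Acss2, which averaged 7.004 ± 0.36 in H/R+B12 cells and 5.79 ± 0.39 in control+B12 cells (SD, n = 4 each), where 2 of the 4 arrays were below the negative control median. The remaining gene counted as higher without B12, Thrsp, was below that median on all 16 arrays, and no change is given for it. Leaving a 2-fold minimum aside, here and in the lists that follow, under at least 1 alternative the calls of Scd1 (adjusted p up to 0.0631 without B12 and 0.0625 with it), Fads2 (up to 0.0848) and Slc25a1 with B12 (up to 0.101) were lost, and Elovl6 gained one with B12 (down to 0.0109). No gene's interaction passed the threshold, so these do not show a difference between the arms.

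The isoprenoid branches leave the mevalonate arm before squalene. Of 14 measured genes 1 rose and 1 fell in each comparison, no larger a share than the 8.11% and 9.54% (without B12) and 9.04% and 9.61% (with B12) of all tested probe sets. Both called genes belong to the prenyl transferase that makes dolichol chains. Dhdds, its catalytic subunit, averaged 10.14 ± 0.17 in H/R and 11.21 ± 0.04 in control cells, and 10.17 ± 0.16 in H/R+B12 and 10.92 ± 0.12 in control+B12 cells (SD, n = 4 each). Nus1, the accessory subunit, averaged 13.77 ± 0.17 in H/R and 13.14 ± 0.23 in control cells, and 13.71 ± 0.13 in H/R+B12 and 13.06 ± 0.17 in control+B12 cells. Dhdds changed by -1.07 ± 0.13 and -0.75 ± 0.13, and Nus1 by 0.63 ± 0.15 and 0.65 ± 0.15 (adjusted p = 2.1e-05, 0.00048, 0.00595 and 0.00475, limma).

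Among 16 genes of sterol esterification, storage and transport inside the cell, 2 rose and 5 fell without B12 and 1 rose and 5 fell with it. Over all tested probe sets the shares were 8.11% higher and 9.54% lower without B12, and 9.04% and 9.61% with it. Nceh1 and Lipa, hydrolases that free cholesterol from its esters, changed by -0.82 ± 0.13 and -0.70 ± 0.16 without B12 and by -0.88 ± 0.13 and -0.79 ± 0.16 with it. The lipid carrier Stard5 rose by 0.99 ± 0.16 and 0.89 ± 0.16, and the endosomal sterol carrier Stard3 changed by -0.81 ± 0.16 without B12 (adjusted p = 0.00171, limma) and was not called with it (-0.31 ± 0.16, adjusted p = 0.219). Gramd1b and Gramd1c, sterol carriers at membrane contacts, were also called lower in both, but their H/R signal was at background. Gramd1b averaged 5.94 ± 0.43 in H/R and 6.95 ± 0.43 in control cells, and 5.67 ± 0.43 in H/R+B12 and 6.94 ± 0.23 in control+B12 cells (SD, n = 4 each), with 3 of 4 arrays below the negative control median in each H/R group. Gramd1c was below it on all 4 arrays of both H/R groups, so no size is given, and its call was lost under 6 alternatives in each comparison (adjusted p up to 0.136 and 0.12). Osbpl9 was called higher without B12 (0.43, and 0.38 with it), and the lipid droplet protein Plin3 was called lower with B12 (-0.43, and -0.24 without it), calls lost under 10 and 8 alternatives (adjusted p up to 0.109 and 0.105). Of 12 targets of the oxysterol receptors LXR and export genes, 1 rose and 3 fell without B12, and 1 and 2 did with it. Their share of higher calls was near that of all tested probe sets in both comparisons. Mylip, the ubiquitin ligase that degrades lipoprotein receptors, changed by -0.97 ± 0.16 and -0.82 ± 0.16, and Lpcat3, a lysophospholipid acyltransferase, by -0.82 ± 0.12 and -0.88 ± 0.12 (adjusted p = 0.000455, 0.0018, 9.65e-05 and 4.93e-05, limma). The gene called higher without B12, Abcg1, was below the negative control median on all 16 arrays, the gene called higher with B12 was the caveolin Cav1 (0.56, and 0.42 without it), and the call of the phospholipid transfer protein Pltp (-0.62 ± 0.20, adjusted p = 0.0433) was lost under 15 alternatives, among them without the first control array (-0.49, adjusted p = 0.138). The call of Cav1 was lost under 4 (adjusted p up to 0.0745).

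Of 7 oxysterol and bile acid enzymes, 1 fell without B12 and 2 with it: the hydroxylase Cyp39a1 changed by -1.05 ± 0.15 and -0.63 ± 0.15 (adjusted p = 8.55e-05 and 0.00578, limma), and with B12 also the dehydrogenase Hsd3b7 (-0.86 ± 0.22, adjusted p = 0.00927, and 0.0536 with only the compared groups in the fit). Beside this and the next list stand 8.11% higher and 9.54% lower of all tested probe sets without B12, and 9.04% and 9.61% with it. Of 5 other measured genes of sterol synthesis and lipoprotein uptake, the lipoprotein receptor Vldlr rose by 0.82 ± 0.19 and 0.70 ± 0.19. The scaffold protein Erg28 of the demethylation enzymes changed by -0.50 ± 0.16 without B12 (adjusted p = 0.0325, limma), a call lost under 6 alternatives, among them without the first control array (adjusted p = 0.0729), and was not called with B12 (0.08 ± 0.16). The receptor Gpr146 was called lower with B12 (-1.13 ± 0.21, adjusted p = 0.000851) and was not called without it (-0.46 ± 0.21, adjusted p = 0.158).

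Added B12 changed no gene of the pathway past the threshold. In H/R+B12 against H/R cells, 0 of the 25 genes were called higher and 0 lower, as were 0% of all tested probe sets in each direction. The same counts, 0 of 25 and 0%, held in both directions for control+B12 against control cells and for the B12 effect pooled over both conditions. At an unadjusted p under 0.05, 2 of the 25 genes passed in H/R+B12 against H/R cells, 1 in control+B12 against control cells and 1 in the pooled effect, beside 1010, 1280 and 1223 of all tested probe sets. Over the 24 genes above background the differences ranged from -0.36 (Npc1) to 0.37 (Insig2) among H/R cells and from -0.55 (Hsd17b7) to 0.17 (Npc2) among cells at normal oxygen.

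Among H/R cells the B12 difference of Hmgcs1 was -0.06 ± 0.15 (95% interval -0.38 to 0.27), that of Msmo1 -0.13 ± 0.20 (-0.55 to 0.30) and that of Insig1 -0.01 ± 0.13 (-0.28 to 0.25). The intervals span 0 and leave out a 2-fold change in either direction. Scap had the smallest unadjusted p there, with 0.34 ± 0.15 (adjusted p = 1, limma), followed by Npc1 with -0.36 ± 0.17 (adjusted p = 1). At normal oxygen, Hsd17b7 read 10.96, 11.12, 10.94 and 10.75 with B12, against 12.0001, 11.10, 11.33 and 11.55 without it, and the groups overlapped by 1 array. Its difference was -0.55 ± 0.18 (adjusted p = 0.82, limma), and its interaction of 0.66 ± 0.25 (adjusted p = 0.972) was not called either. The other gene with an unadjusted p under 0.05 in the interaction was Abca1, which lay below background.

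**Figure D4:**
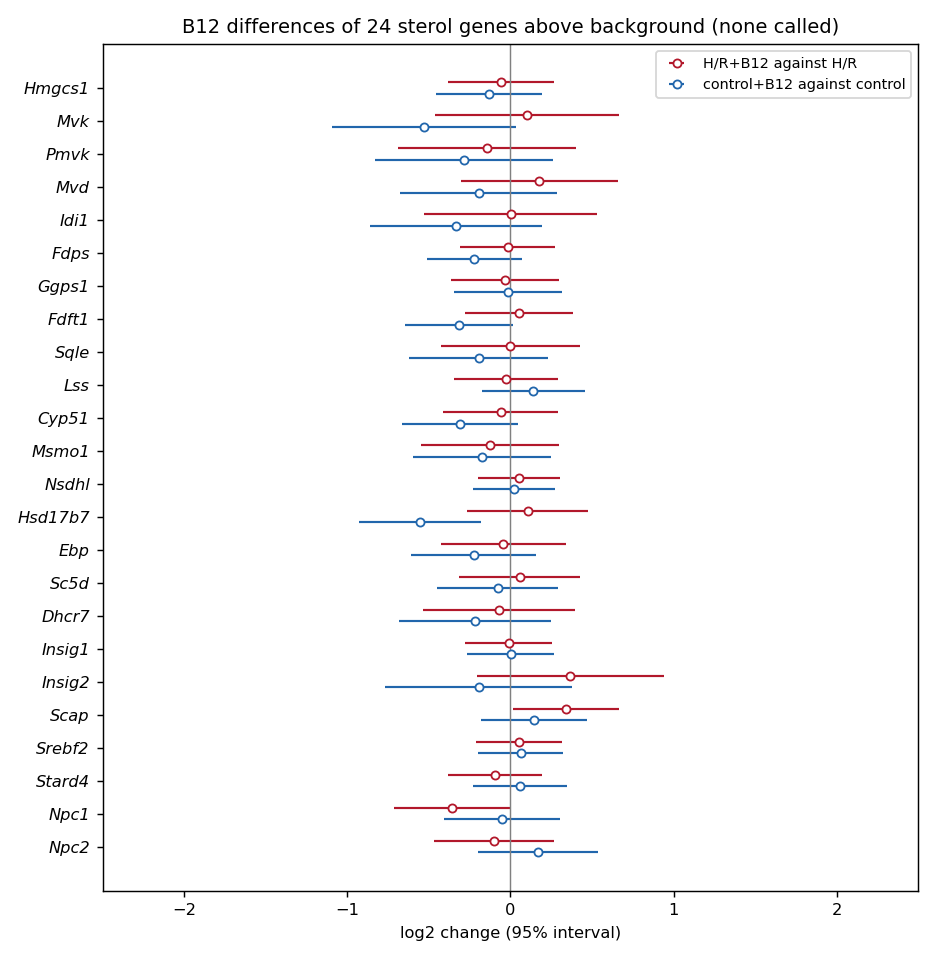
Log2 change of each of the 24 genes above background with B12 against without B12, among H/R cells (dark red) and among cells at normal oxygen (blue), with 95% intervals from limma. No gene passed the adjusted threshold, and most blue points lie left of 0.

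At normal oxygen 15 of the 17 enzymes were lower with B12 than without it, with a median difference of -0.22. The first control array was the highest of the 4 control arrays for 15 of the 17 enzymes. The median over the 17 enzymes of the signal minus the control mean was 0.45 on it, against -0.20, -0.19 and -0.0032 on the other control arrays. On the control+B12 arrays the same median was -0.28, -0.22, -0.16 and -0.14. Without the first control array 9 of the 17 enzymes were lower with B12, with a median difference of -0.04. That array was picked because it was high, so leaving it out had to make the difference smaller. No other array was left out of this summary, and the cause of the difference was not tested. Among H/R cells 10 of 17 were lower with B12, with a median difference of -0.02.

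The same summary separated the H/R arrays from the others without overlap. It was 1.19, 1.11, 1.00 and 1.12 on the H/R+B12 arrays and 1.25, 1.12, 1.21 and 1.03 on the H/R arrays, all above the first control array. Without it, 17 of the 25 genes rose after H/R without B12, the added ones being Pmvk and Dhcr7, and 1 fell. The array left out was the highest control array for both added genes, so their differences had to become larger.

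**Figure D5:**
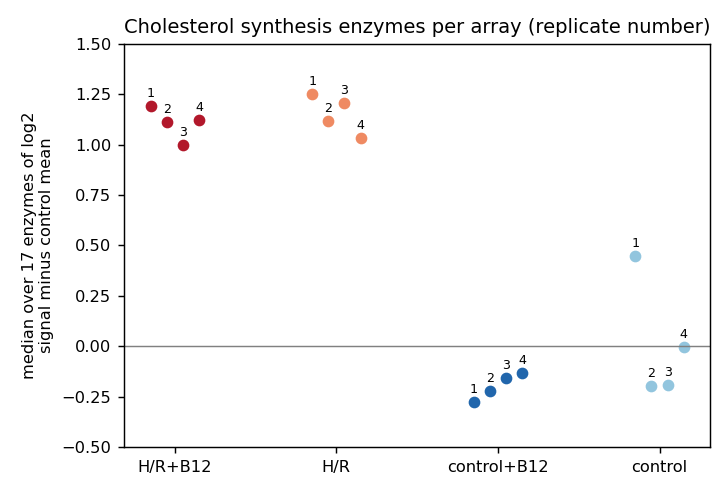
Median over the 17 enzymes of log2 signal minus the gene's control mean on each array, numbered by replicate, in H/R+B12, H/R, control+B12 and control cells. The 8 H/R arrays lie between 1.00 and 1.25, and the first control array, at 0.45, stands above the other 7 arrays at normal oxygen.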

How the data were processed

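Log2 signal values per probe set and array were deposited by the authors. These values are RMA output, and Affymetrix Expression Console and the Transcriptome Analysis Console were the tools used, per the submitters' processing notes. Of 28846 features, 6640 control features were left out and 22206 were tested, 19572 with 1 gene symbol in the platform annotation and 2634 with none. Symbols were matched to RefSeq (GRCm38.p6), and a gene with several probe sets was read from the one with the highest mean.

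The 16 arrays were fitted as 4 groups with limma 3.58.1 (lmFit and eBayes, R 4.3.3, prior degrees of freedom 4.23, total 16.2), with 6 comparisons and Benjamini-Hochberg adjustment over all tested probe sets in each. The script was tested on simulated data. Figures were drawn with matplotlib 3.10.9 in Python 3.11.15. The number of arrays limits the precision.

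The genes of the pathway are those given by name. Of each related list, up to 4 genes with the smallest adjusted p in H/R against control are named, and other called genes only because of their call. The genes and the lists were chosen with earlier results of these data known, and no list was tested as a set. Replicate numbers were checked for pairing: the deviations of 24 same-numbered pairs correlated at -0.07 to 0.08, and 0 exceeded 0.1, so the numbers were not taken to pair the arrays. Alternatives were a replicate block, the 2 compared groups alone, robust variances with an intensity trend, weights per array, quantile normalization, centring, leaving out the dimmest 25% of probe sets, averaging a gene's probe sets, a 2-fold minimum and leaving out each array.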

Additional observations from a re-analysis of the deposited data

Results flagged for a closer look

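In 7 of the 100 groups of 4 arrays examined (25 genes in 4 groups), 1 array stood apart from the other 3 by Dixon's test, and chance alone does so in about 1 in 20 groups. Among H/R arrays, Idi1 was low on the fourth (12.86, next 13.20), Dhcr7 was low on the first (10.83, next 11.40) and Ebp was high on the third (9.94, next 9.62). Fdft1 was low on the fourth H/R+B12 array (15.44, next 15.63). Pmvk was low on the fourth control+B12 array (8.40, next 9.07). Among control arrays, Cyp51 was high on the first (15.42, next 14.74), the array on which 15 of the 17 enzymes were highest, and Ggps1 was low on the second (10.78, next 11.13).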

How the results depend on the processing

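No gene of the pathway changed direction past the threshold under any alternative. The count of genes higher in H/R against control cells was 15, with 11 under a 2-fold minimum, 15 to 17 under the other alternatives and 15 to 17 when single arrays were left out. With B12 in both arms it was 17, with 13, 17 to 18 and 16 to 18. The count of genes lower was 1 in both comparisons (Ebp) under every alternative except a 2-fold minimum, which left 0 and 0, since the change of Ebp is under 2-fold. With the replicate number as a block the counts were 15 higher and 1 lower without B12 and 17 and 1 with it, and no call of a gene of the pathway changed. Among related genes the block removed the call of Pltp (-0.62, adjusted p = 0.0605) and left 1 of the 2 higher calls of the esterification and storage list. The median change without B12, 0.80, was 0.75 to 0.99 with single arrays left out, and 0.99 without the fourth control array, and with B12, 1.01, it was 0.95 to 1.03. Leaving out Abca1, which is below background, a choice made after seeing the data, gave 0.89 and 1.01. Centring each array on its median moved the split over all tested probe sets to 2133 higher and 1646 lower without B12 (1801 and 2118 as deposited) and to 2417 and 1605 with it (2007 and 2135). It shifted the median of all tested probe sets to 0.05 in both and kept 16 and 18 genes of the pathway higher. Pmvk, Dhcr7 and Insig2 account for the calls gained or lost by alternatives other than the 2-fold minimum. Signal near the negative controls limits what can be said of Mvk and Abca1. No comparison of B12 or interaction called a gene of the pathway under any alternative. The causes of these shifts were not tested.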
